A study of Arabidopsis thaliana with 12 samples.

Results

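The plant U-box (PUB) genes described here are those that had a probe set of their own on the array and a symbol made of PUB and a number. There were 9 of them, PUB15, PUB19, PUB22, PUB23, PUB24, PUB25, PUB26, PUB43 and PUB49, among 13363 genes with such a probe set and among 22 genes with a PUB symbol in RefSeq. The rule reads gene names and no measured value. A probe set of its own is one to which the platform annotation gave that gene alone. The annotation gave no gene to 8730 of the 22746 probe sets tested, so genes without one here may still be on the array. The other 13 (PUB4, PUB8, PUB9, PUB12, PUB13, PUB14, PUB17, PUB18, PUB29, PUB38, PUB39, PUB45 and PUB54) were not analysed here. RNA came from the green parts of Arabidopsis thaliana seedlings of the Col-0 ecotype, 3 weeks old and grown on soil at 23 °C with 10 h of light, and was measured on 12 one-colour arrays, 3 biological replicates in each of 4 groups. In the CHLD RNAi group, RNA interference against CHLD, a magnesium chelatase subunit, was switched on with 20 µg/ml dexamethasone, and its control was Col-0 given the same dexamethasone. In the CHLM group, overexpression of CHLM, the next methyltransferase of chlorophyll synthesis, was switched on with 20 µM β-estradiol, and its control was Col-0 given the same β-estradiol. The controls share the inducer with their line, and the inducer differs between the lines.

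Ubiquitin ligases choose the proteins that are tagged with ubiquitin and, in many cases, broken down by the proteasome. U-box ligases bind a ubiquitin-loaded conjugating enzyme (E2) through a fold related to the RING finger, and in plants many of them carry armadillo repeats that bind the substrate. PUB22, PUB23 and PUB24 are known as brakes on pattern-triggered immunity, PUB19 acts with its close relative PUB18 in responses to drought and abscisic acid, and PUB25 and PUB26 are paralogues known to act on the immune kinase BIK1 and on the cold-signalling repressor MYB15.

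The deposited values are log2 signals, so that a difference of 1 is a doubling of signal. Array medians lay between 6.26 and 6.31, with Pearson's r from 0.983 to 0.997 for any pair of arrays over 22746 probe sets. In Col-0 under estradiol, replicate 1 was less like its group, with r = 0.99 to replicates 2 and 3, whose r with each other was 0.997. CHLM itself was 5.75-fold higher in its overexpression line than in Col-0 (limma adjusted p = 1.30e-07), and CHLD was not analysed here, so that its knockdown, on which every CHLD RNAi value depends, was not checked in these arrays. The green-tissue markers LHCB4.2, PSAN and SBPASE were high in every group, with means from 11.7 to 13.9, and none of these 3 passed the test in either line. Only 4 of the 15 marker genes listed had a probe set of their own in the annotation. The other was FMA, a guard-cell gene, which was at 6.32 in Col-0 and 5.94 in the CHLD RNAi line under dexamethasone (log2 difference -0.38, SE 0.109, limma adjusted p = 0.0361). FMA was also lower in the CHLM line but did not pass there (log2 difference -0.22, SE 0.109, limma adjusted p = 0.220). Its call in the CHLD RNAi line was not tried with single arrays left out. In RNA from whole tissue, fewer cells of a type and less RNA per cell cannot be told apart.

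PUB25 rose in the CHLD RNAi line and was the only one of the 9 PUB genes to pass the test there. Its log2 signal was 7.26, 7.37 and 7.07 in replicates 1, 2 and 3 of the line, against 6.03, 5.89 and 5.59 in Col-0 under dexamethasone. The groups were far apart, with the lowest array of the line above the highest control, and groups without overlap in either direction made up 31.7% of all probe sets. The mean went from 5.84 ± 0.22 to 7.23 ± 0.15 (SD, n = 3), a 2.63-fold rise with a 95% interval of 2.21 to 3.13 (log2 difference 1.40, SE 0.117, limma adjusted p = 2.87e-06). Among the 9 genes 1 was called, in a comparison where 12.4% of all probe sets passed an adjusted p of 0.05. The share of called members, 11.1%, is thus near the background. The p-value of PUB25 by limma was the 75th smallest of 22746, a rank of the change relative to its error and not of its size. The rise was called in each of 17 alternative settings, among them the removal of any single array, and lay between 1.27 and 1.49 on the log2 scale when 1 array was left out. The fall of FMA in the same line is a change in a guard-cell marker beside it, and its part in the PUB25 rise was not tested.

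In the CHLM overexpression line PUB25 did not pass the test. Its log2 signal was 5.86, 6.04 and 6.02 in the line and 5.80, 5.79 and 5.94 in Col-0 under estradiol, and the groups overlapped. The log2 difference of 0.13 (SE 0.117, limma adjusted p = 0.544) had a 95% interval from -0.12 to 0.38, whose upper end lies under the lower end of 1.15 in the CHLD RNAi line. A direct test of CHLM against CHLD effects gave -1.27 (CHLM effect minus CHLD effect, SE 0.165, limma adjusted p = 8.46e-04). PUB25 was the only one of the 9 PUB genes to pass it, where 1.13% of all probe sets passed, 0.879% with a lower and 0.246% with a higher effect in the CHLM line. At an unadjusted p under 0.05 by limma, 3 of the 9 passed, PUB22, PUB24 and PUB25, where 9.5% of all probe sets did. Across the 4 groups the order of mean log2 signal for PUB25 was the CHLD RNAi line at 7.23, the CHLM line at 5.97, Col-0 under estradiol at 5.84 and Col-0 under dexamethasone at 5.84, and the last 3 overlapped.

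PUB26, the paralogue of PUB25, did not pass the test in either line. In the CHLD RNAi line it was at 6.32, 6.38 and 6.14, against 6.34, 6.50 and 6.24 in Col-0 (log2 difference -0.08, SE 0.109, limma adjusted p = 0.721). Under CHLM overexpression it was at 6.35, 6.58 and 6.26, against 6.38, 6.44 and 6.58 (log2 difference -0.07, SE 0.109, limma adjusted p = 0.755). All 4 groups overlapped, and the 95% intervals of both differences lay within -0.31 and 0.16. The gap between PUB25 and PUB26 within an array was 0.93 to 0.99 in the CHLD RNAi line and -0.65 to -0.31 in its controls, a shift of 1.48 on the log2 scale. An exact two-sided permutation test of this shift gave p = 0.1, the smallest p that 3 arrays against 3 allow. In the CHLM line the gap was -0.54 to -0.24, against -0.65 to -0.58 in its controls, a shift of 0.20. These groups did not overlap either, and the same permutation test gave p = 0.1. Since p cannot fall under 0.1 here, this test cannot decide whether the paralogues changed unequally in either line. In the CHLD RNAi line the 95% interval of the PUB25 difference, 1.15 to 1.65, lay above that of PUB26, -0.31 to 0.15. In the CHLM line the intervals of PUB25, -0.12 to 0.38, and PUB26, -0.30 to 0.16, overlapped. The shift restates the PUB25 values given above and does not compare the levels of the paralogues.

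**Figure D1:**
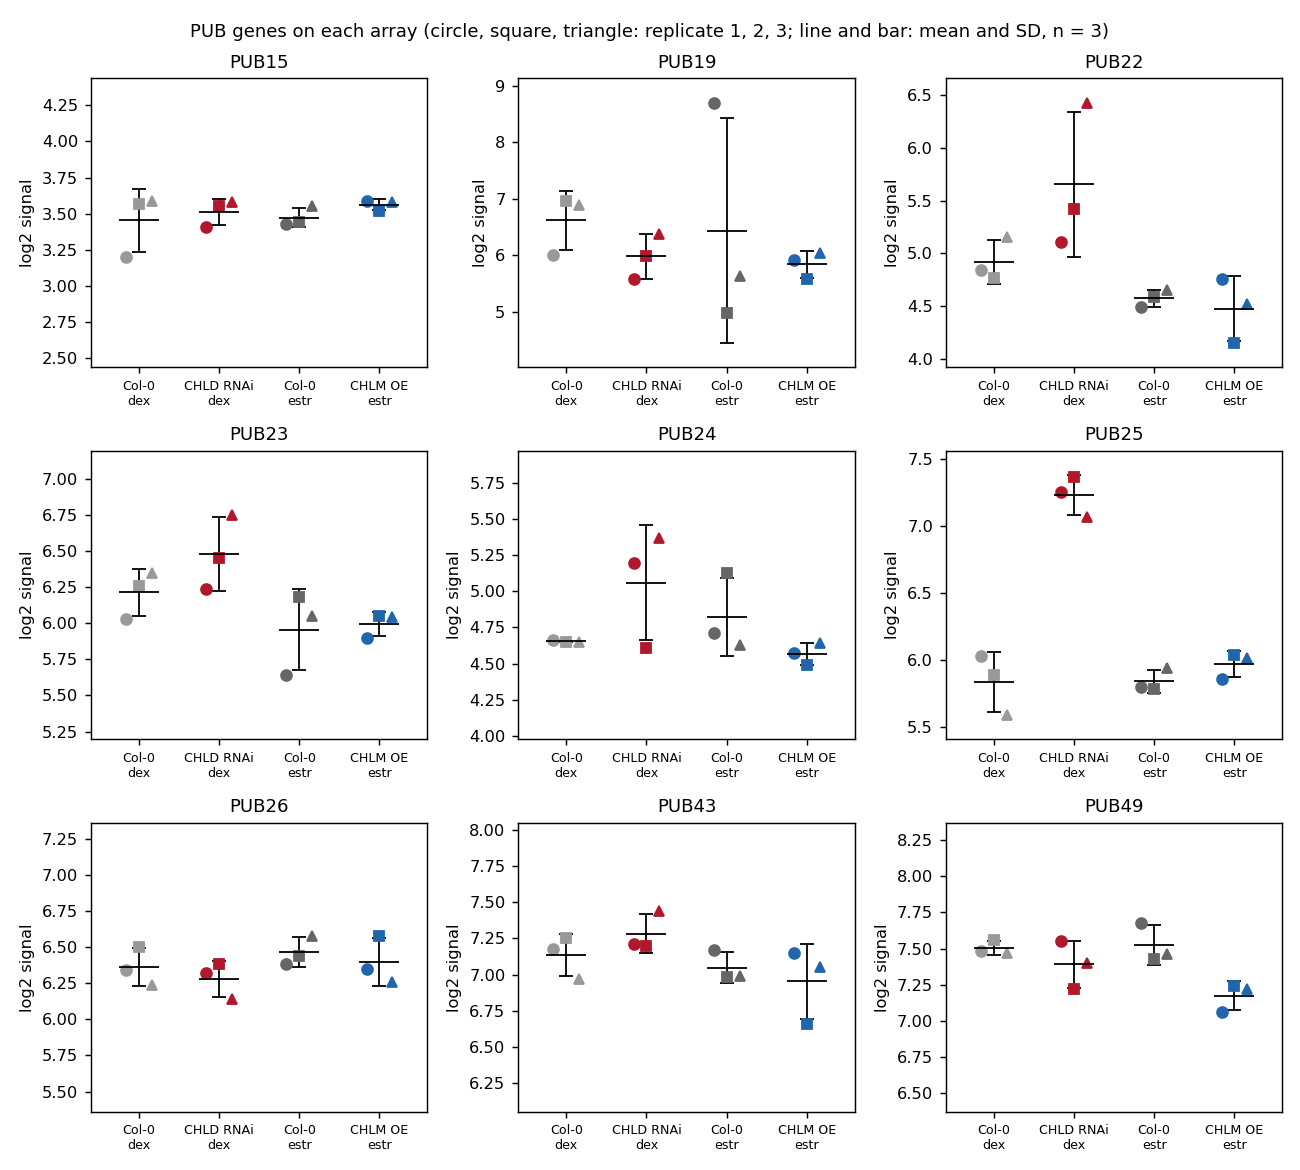
Log2 signal (vertical axis) of the 9 PUB genes on each of the 12 arrays, by group (horizontal axis); circles, squares and triangles are replicates 1, 2 and 3, and the line with its bar is the mean with the SD over 3 arrays. PUB25 lies between 7.07 and 7.37 in the CHLD RNAi line and at or below 6.04 elsewhere, and PUB19 reaches 8.70 in replicate 1 of Col-0 under estradiol.

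The genes whose pattern over the 12 arrays was most like that of PUB25 were ATMPK13, a mitogen-activated protein kinase gene (Pearson's r = 0.988), AT5G40980 (r = 0.983) and SWEET13, which encodes a sucrose transporter (r = 0.982). These correlations describe 12 arrays that share 4 groups. The genes were picked for likeness to PUB25 over these same arrays, so that their rise in the CHLD RNAi line follows from the choice. The lack of such a rise in the CHLM line follows from it too. ATMPK13 was at 7.60, 8.26 and 7.77 in the CHLD RNAi line and at 5.17, 5.11 and 4.85 in its controls (log2 difference 2.83, SE 0.154, limma adjusted p = 3.54e-08). SWEET13 was at 9.13, 9.19 and 8.88 against 6.54, 5.88 and 5.94. AT5G40980 was at 7.90, 7.90 and 7.70 against 6.20, 6.26 and 5.89. None of these 3 genes passed the test in the CHLM line, where their log2 differences were 0.37, -0.03 and -0.03, and each had its 3 highest values on the 3 CHLD RNAi arrays.

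The genes that lie next to PUB25 were also looked at, a window set with the values already known. Of the 10 protein-coding genes on each side of it in the RefSeq order, 14 had a probe set of their own. In the CHLD RNAi line 4 of these 14 rose and 0 fell, where 6.07% of all probe sets rose. AT3G19370, immediately next to PUB25, had a log2 difference of 0.72 (SE 0.17, limma adjusted p = 0.0139). On the other side, AT3G19430, 5 genes away, had a log2 difference of 3.21 (SE 0.145, limma adjusted p = 6.43e-09), AT3G19440, 6 genes away, of 1.28 (SE 0.134, limma adjusted p = 3.16e-05) and AT3G19470, 9 genes away, of 0.38 (SE 0.091, limma adjusted p = 0.0139). The rise was not continuous along the chromosome, since AT3G19390 and AT3G19400, between PUB25 and AT3G19430, stood at -0.05 and -0.24 and did not pass. Under CHLM overexpression 0 of the 14 passed the limma test at an adjusted p under 0.05, where 9.75% of all probe sets did. The call of AT3G19370 ended without Col-0 dexamethasone replicate 3 (adjusted p = 0.0606) or CHLD RNAi replicate 2 (adjusted p = 0.0560), and that of AT3G19470 without Col-0 dexamethasone replicate 1 (adjusted p = 0.0604). Over the windows of all 9 PUB genes, 9 of 87 measured neighbours rose and 7 fell in the CHLD RNAi line, where 6.34% of all probe sets fell, and 10 of the 87 passed in the CHLM line.

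**Figure D2:**
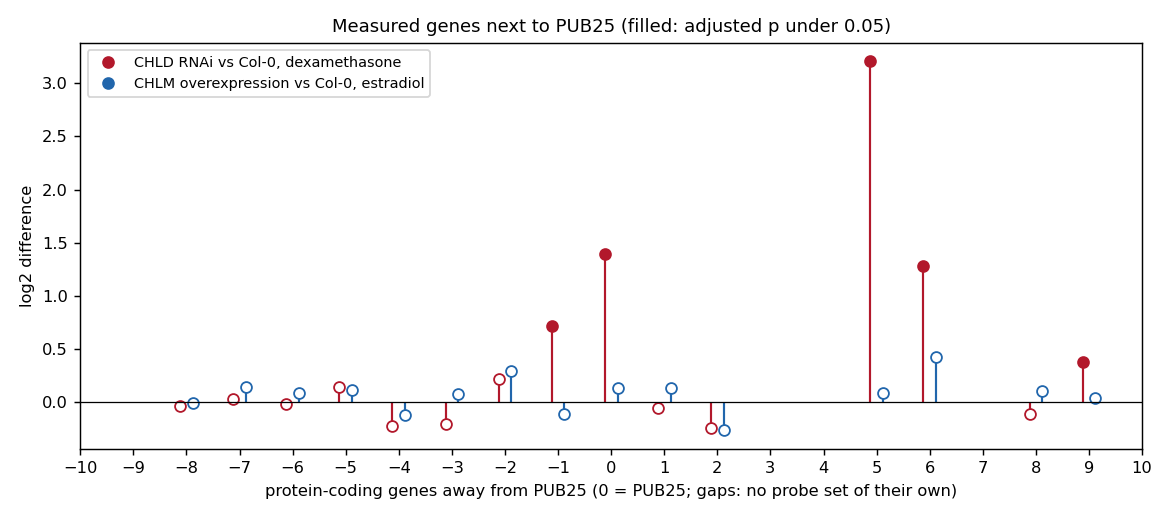
Log2 difference (vertical axis) of PUB25, at 0, and of the measured genes around it against their distance in protein-coding genes (horizontal axis), for the CHLD RNAi line (red) and the CHLM line (blue) relative to their own Col-0 controls; filled points passed an adjusted p of 0.05. PUB25 at 1.40, AT3G19430 at 3.21 and AT3G19440 at 1.28 are the tall red stems, with unfilled points between them.

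PUB22, PUB23 and PUB24, the immunity brakes, each had a higher mean in the CHLD RNAi line than in Col-0 and none passed the test. PUB22 was at 5.11, 5.42 and 6.43 in the line and at 4.84, 4.77 and 5.16 in Col-0. The groups overlapped by a small margin, since the lowest array of the line lay just under the highest control. The log2 difference was 0.73 (1.66-fold, 95% interval 1.14 to 2.42; SE 0.253, limma adjusted p = 0.0757). The size of the PUB22 difference rested on CHLD RNAi replicate 3, which lay 1.17 above the mean of its fellow replicates. Without it the difference was 0.34 (SE 0.168, limma adjusted p = 0.246), and without replicate 1, the lowest of the line, it passed at 1.0 (SE 0.243, limma adjusted p = 0.0246).

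PUB24 was at 5.20, 4.61 and 5.37 in the CHLD RNAi line, against 4.66, 4.65 and 4.65 in Col-0 under dexamethasone. Replicate 2 of the line lay below all 3 controls while the other 2 lay well above them. The log2 difference was 0.41 (SE 0.166, limma adjusted p = 0.133), with a 95% interval from 0.05 to 0.76. Without CHLD RNAi replicate 2 it was 0.63 (SE 0.133, limma adjusted p = 0.0121), and without replicate 3 it was 0.25 (limma adjusted p = 0.412). PUB23 was at 6.24, 6.45 and 6.75 in the line and at 6.03, 6.26 and 6.35 in Col-0, which overlapped (log2 difference 0.27, SE 0.149, limma adjusted p = 0.285). Replicate 3 of the CHLD RNAi line was the highest of the 12 arrays for PUB22, PUB23 and PUB24 alike.

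Under CHLM overexpression these 3 genes had log2 differences of -0.10 for PUB22, 0.04 for PUB23 and -0.26 for PUB24, with limma adjusted p of 0.859, 0.911 and 0.372. PUB22 was at 4.76, 4.15 and 4.52 against 4.49, 4.59 and 4.65 in Col-0 under estradiol, PUB23 at 5.90, 6.05 and 6.04 against 5.64, 6.18 and 6.05, and PUB24 at 4.57, 4.49 and 4.64 against 4.71, 5.13 and 4.63. The groups overlapped in each case. Tested directly, the CHLM effect minus the CHLD effect was -0.83 for PUB22 (SE 0.358, limma adjusted p = 0.467), -0.23 for PUB23 (SE 0.21, limma adjusted p = 0.838) and -0.66 for PUB24 (SE 0.235, limma adjusted p = 0.303), so that a different response of the lines was not shown for any of them. Without CHLD RNAi replicate 2 the PUB24 value was -0.89 and passed (SE 0.179, limma adjusted p = 0.032). Across the 12 arrays PUB22 was correlated with PUB23 at r = 0.829 and with PUB24 at r = 0.623. PUB23 was correlated with PUB24 at r = 0.533. After each group's mean was subtracted, these values were 0.572, 0.388 and 0.356. Such values were not particular to these genes, since PUB22 had r = 0.730 with PUB43 (0.481 after subtraction) and 0.654 with PUB25 (-0.629). Its r was -0.694 with PUB26 (-0.634 after subtraction) and from 0.024 to 0.186 with PUB15, PUB19 and PUB49. All these correlations describe arrays that share 4 groups.

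PUB19 varied more over the 12 arrays than any of the other 8 PUB genes, with an SD of 0.959. In Col-0 under estradiol it was at 8.70, 4.97 and 5.63, which are both the highest and the lowest PUB19 values in the study. Replicate 1, the array that stood apart from its group, lay 3.40 above the mean of the other 2, and 20 of 22746 probe sets departed by more on that array. The other groups were tighter. PUB19 was at 6.01, 6.95 and 6.89 in Col-0 under dexamethasone, at 5.58, 5.99 and 6.37 in the CHLD RNAi line and at 5.92, 5.57 and 6.03 in the CHLM line.

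Neither line passed the test for PUB19. The fit shares 1 estimate of the spread among the 4 groups, so that Col-0 under estradiol (SD 1.99) also widens the CHLD RNAi interval. The groups of that comparison had SDs of 0.53 (Col-0 under dexamethasone) and 0.40 (CHLD RNAi). The log2 difference was -0.64 in the CHLD RNAi line (SE 0.654, limma adjusted p = 0.614) and -0.59 in the CHLM line (SE 0.654, limma adjusted p = 0.635), with 95% intervals from -2.04 to 0.77 and from -2.0 to 0.81. In the CHLD RNAi line this interval runs from 0.243 to 1.70 times the control signal. Without Col-0 estradiol replicate 1 the SE fell to between 0.245 and 0.274. The CHLD RNAi value was then still -0.64 (SE 0.245, limma adjusted p = 0.0958), and the CHLM value turned to 0.54 (SE 0.274, limma adjusted p = 0.276). Between the Col-0 groups the difference moved from 0.18 (dexamethasone minus estradiol, SE 0.654, limma adjusted p = 0.958) to 1.32 without that array, which passed (SE 0.274, limma adjusted p = 0.0181).

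The genes most like PUB19 over the 12 arrays were AT1G69480 (r = 0.961), SIS, a gene named for its induction by salt (r = 0.953), and AT1G07590 (r = 0.951). Each of them peaked on the same array. SIS was at 9.96 in replicate 1 of Col-0 under estradiol and at 6.08 and 6.11 in replicates 2 and 3, and AT1G07590 was at 9.28 against 5.49 and 5.52. AT1G69480 was at 5.98 against 3.85 and 4.03. Over the 11 arrays without that one, the correlations with PUB19 were 0.879, 0.857 and 0.85, for genes that had been picked for their likeness over all 12. Replicate 1 of Col-0 under dexamethasone was the lowest control of its group for PUB19 and for each of these 3 genes.

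**Figure D3:**
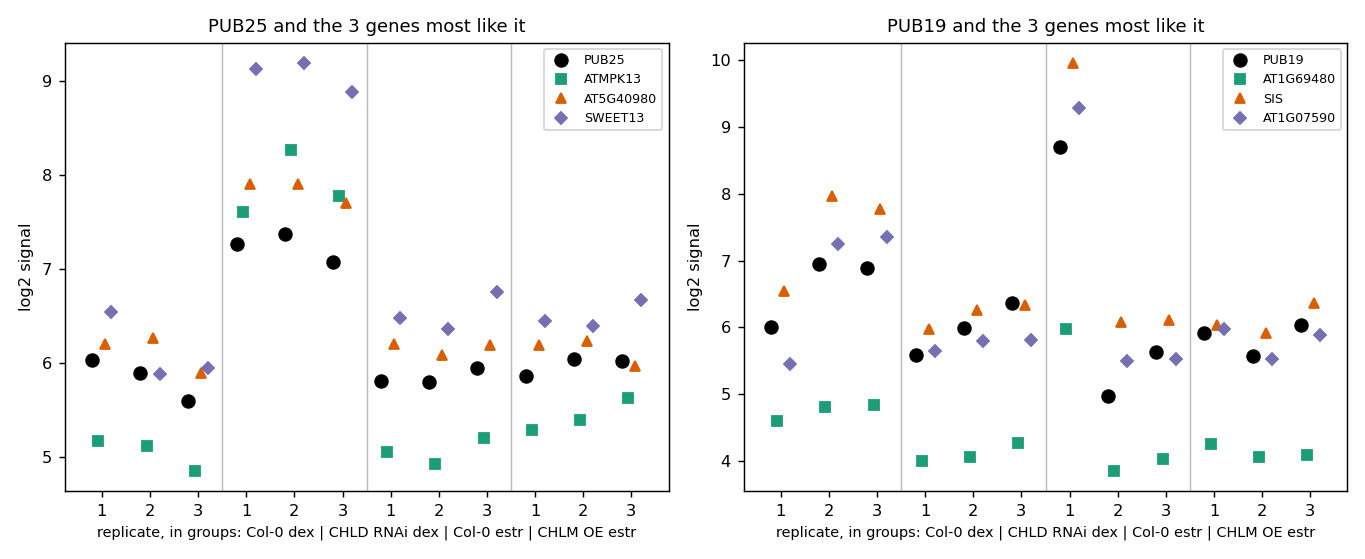
Log2 signal (vertical axis) of PUB25 (left) and PUB19 (right), as black circles, and of the 3 genes most like each over the 12 arrays, by replicate within group (horizontal axis); the grey lines part the groups. PUB25 and its 3 likest genes are raised on the 3 CHLD RNAi arrays, and PUB19 at 8.70 and SIS at 9.96 peak on replicate 1 of Col-0 under estradiol.

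PUB49, which joins a U-box to a cyclophilin-type isomerase domain, was lower in the CHLM overexpression line and was the only one of the 9 genes to pass the test there. It was at 7.06, 7.24 and 7.22 in the line and at 7.68, 7.43 and 7.46 in Col-0 under estradiol. The groups did not overlap, as in 26.3% of all probe sets of this comparison. The fall was 1.27-fold (log2 difference -0.35, SE 0.103, limma adjusted p = 0.0466), in a comparison where 9.75% of all probe sets were called, 5.44% higher and 4.3% lower. The call was near the threshold and ended without 10 of the 12 arrays, 1 at a time, with adjusted p up to 0.158. It was kept without CHLD RNAi replicate 1 or replicate 2, which are outside the comparison and enter only the shared spread. In the CHLD RNAi line PUB49 was at 7.55, 7.22 and 7.40 against 7.48, 7.56 and 7.47 (log2 difference -0.11, SE 0.103, limma adjusted p = 0.554), and the CHLM effect minus the CHLD effect, -0.24, did not pass (SE 0.146, limma adjusted p = 0.699).

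The genes most like PUB49 were AT3G19990 (r = 0.957), AT3G51000 (r = 0.951) and NdhS, which encodes a subunit of the chloroplast NDH complex (r = 0.933). They were picked for likeness over the same arrays, so that a shared direction in the CHLM line follows from the choice. In the CHLM line AT3G19990 had a log2 difference of -0.37 (SE 0.108, limma adjusted p = 0.0446), AT3G51000 of -0.54 (SE 0.154, limma adjusted p = 0.0401) and NdhS of -0.32 (SE 0.115, limma adjusted p = 0.0941). The calls of AT3G19990 and AT3G51000 ended without 9 and 6 of the 12 arrays, 1 at a time, with adjusted p up to 0.156 and 0.153.

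PUB43, a relative of the senescence-linked ligase SAUL1, did not pass in either line. It was at 7.21, 7.20 and 7.44 in the CHLD RNAi line and at 7.18, 7.25 and 6.97 in its controls (log2 difference 0.15, SE 0.128, limma adjusted p = 0.521). In the CHLM line it was at 7.15, 6.66 and 7.05 against 7.17, 6.98 and 6.99 (log2 difference -0.09, SE 0.128, limma adjusted p = 0.714), with the lowest value on replicate 2. PUB15, a U-box protein with armadillo repeats, was the only one of the 9 whose mean of 3.50 lay below 3.99, the first quartile of the means of all probe sets. Its 12 values ran from 3.20 to 3.59, the groups overlapped, and the log2 differences of 0.06 and 0.09 did not pass (limma adjusted p = 0.789 and 0.657).

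**Figure D4:**
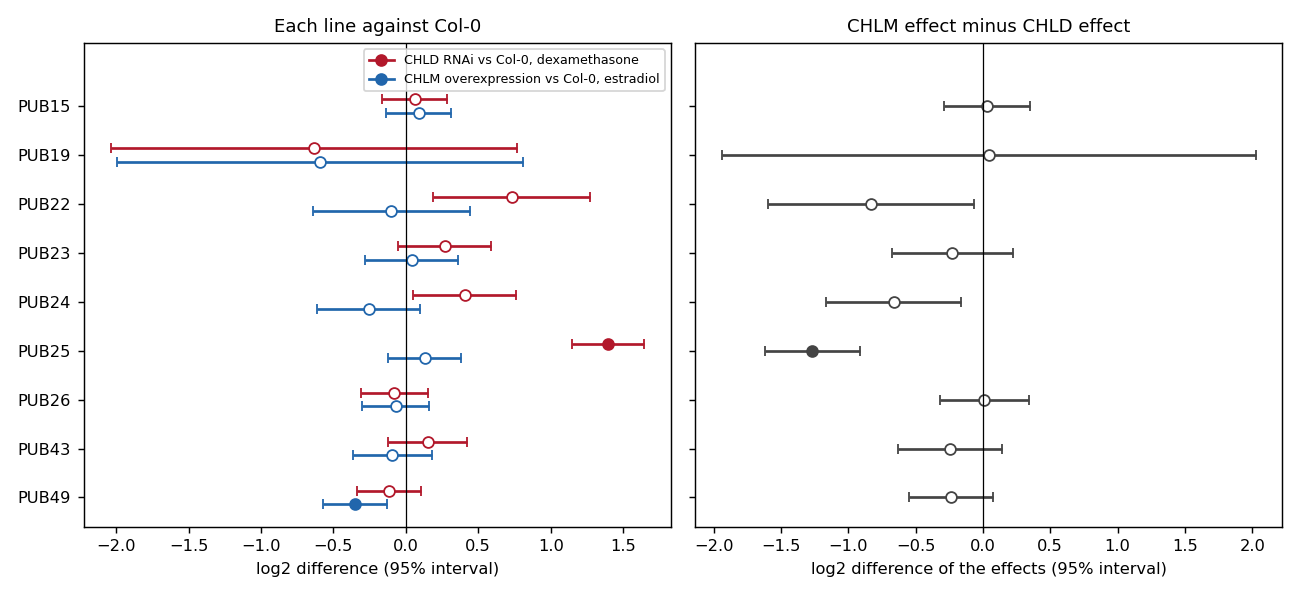
Log2 differences (horizontal axes) with 95% intervals from limma for the 9 PUB genes (vertical axis), for the lines relative to their own Col-0 controls (left) and for the CHLM effect minus the CHLD effect (right); filled points passed an adjusted p of 0.05. PUB25 stands alone at 1.40 in the CHLD RNAi line, PUB49 is filled at -0.35 in the CHLM line, and the intervals of PUB19 are the widest.

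Across the 9 genes, 6 had means that were higher and 3 lower in the CHLD RNAi line, with a median log2 difference of 0.15 beside -0.01 over all probe sets. At an unadjusted p under 0.05, 3 of the 9 passed, PUB22, PUB24 and PUB25, where 26.2% of all probe sets did. In the CHLM line 3 means were higher and 6 lower, with a median of -0.09 beside 0.02, and at an unadjusted p under 0.05 PUB49 alone passed, where 25.2% of all probe sets did. Between the control groups, which compare the inducers in Col-0, 0 of the 9 passed by limma at either an adjusted or an unadjusted p under 0.05, where 0.0484% (0.0308% higher and 0.0176% lower under dexamethasone) and 10.6% of all probe sets did, and the log2 differences ran from -0.17 for PUB24 to 0.35 for PUB22. PUB22 was the only one of the 9 whose control groups did not overlap, as in 14.9% of all probe sets (4.84, 4.77 and 5.16 under dexamethasone against 4.49, 4.59 and 4.65 under estradiol; SE 0.253, limma adjusted p = 0.69).

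Few of the partners of U-box ligases had a probe set of their own in the annotation. RING-type ligases are the other large class that binds an E2 in this way. Of 41 genes picked from it by symbol, which are not the whole class, 6 were measured. In the CHLD RNAi line 1 of these 6 rose and 2 fell, where 6.07% of all probe sets rose and 6.34% fell. Under CHLM overexpression 2 of the 6 fell and 0 rose, where 4.3% of all probe sets fell and 5.44% rose. ATL4H rose from 5.38 to 6.29 in the CHLD RNAi line (log2 difference 0.91, SE 0.109, limma adjusted p = 1.14e-04), and like PUB25 it passed the direct test of CHLM against CHLD effects, at -0.92 (SE 0.154, limma adjusted p = 0.0062). ATL8 fell by 0.73 in the CHLD RNAi line (SE 0.112, limma adjusted p = 8.59e-04) and by 0.63 in the CHLM line (SE 0.112, limma adjusted p = 0.00495). XERICO, a RING protein that raises abscisic acid, fell by 1.06 (SE 0.168, limma adjusted p = 0.00112) and by 0.71 (SE 0.168, limma adjusted p = 0.019). The XERICO call in the CHLM line ended without CHLM replicate 1 (adjusted p = 0.0751), and without Col-0 estradiol replicate 1 the fall was 0.46. The other measured RING genes of this list, ATL5, ATL63 and RHF1A, did not pass in either line. Of 5 measured cullin and SKP1-like subunits, which build the SCF-type ligases, 0 passed by limma in either line. Of all probe sets 12.4% (CHLD RNAi) and 9.75% (CHLM) did. The medians of the 5 were -0.01 and -0.02. SK15, SK16 and SK19 had group means of 2.98 to 3.27, below 3.99, the first quartile of the means of all probe sets. For these dim genes the lack of a call says little.

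Of 17 genes for reported substrates and partners of PUB proteins 2 were measured, and neither passed. BIK1, the kinase on which PUB25 and PUB26 are known to act, had a log2 difference of 0.07 in the CHLD RNAi line (SE 0.156, limma adjusted p = 0.85) and 0.16 in the CHLM line (SE 0.156, limma adjusted p = 0.59). RPN12a, a proteasome subunit and a known substrate of PUB22 and PUB23, had 0.04 and 0.05 (SE 0.0843 for both, limma adjusted p = 0.83 and 0.76). These are transcript signals, and ligases act on the proteins. Of 8 cold-response genes COR15A and COR47 were measured, with log2 differences of 0.16 and -0.54 in the CHLD RNAi line, neither past the threshold (limma adjusted p = 0.682 and 0.133). In the CHLM line their differences had the same directions, 0.33 and -0.40, and did not pass either (limma adjusted p = 0.320 and 0.277). EX1, which relays singlet oxygen signals from the plastid, was the only measured member of 5 genes of singlet oxygen response and chloroplast degradation, at -0.08 and 0.13 (limma adjusted p = 0.755 and 0.547). BIK1 was also the only measured member of 9 genes of pattern-triggered immunity, and 11 genes of abscisic acid and drought response were not analysed here.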

How the data were processed

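The authors made the deposited log2 values, 1 per probe set and array, in Expression Console (Affymetrix), as the submitters' processing notes list it. Version, summary method and normalization are not given in the sources used here, and log base 2 was taken from the range of 2.39 to 14.49. The values were used as deposited, with 0 columns left out. Of 22809 probe sets, 63 AFFX controls were left out. The platform annotation gave 1 gene to 13513 of the 22746 tested, several to 503 and none to 8730, and 13436 were matched to RefSeq (TAIR10.1). All 9 PUB genes had a single probe set.

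All 12 arrays entered 1 limma model of 4 groups (R 4.3.3, limma 3.58.1, with 8 degrees of freedom from residuals and 6.05 from the prior). Tests are two-sided, with p-values Benjamini-Hochberg adjusted over all 22746 probe sets, with a threshold of 0.05 and no minimum fold. The test was tried on simulated data first, with independent normal noise at each probe set's own spread. Of 200 probe sets changed by 0.5 on the log2 scale, it recovered 48% (CHLD RNAi) and 41% (CHLM). Of 200 changed by 1 it recovered 94.5% and 96%. Only these 200 of 22746 probe sets were changed, fewer than the 2822 (CHLD RNAi) and 2217 (CHLM) called in the data. With fewer changes the Benjamini-Hochberg adjustment is stricter, so that these shares are not the sensitivity of the comparisons reported. The direct test of CHLM against CHLD effects was not simulated. A difference near 0.5 that did not pass is not shown to be absent. Precision is limited by 3 arrays per group.

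Named were all PUB genes, CHLM, the 3 likest genes (highest Pearson's r) of PUB19, PUB25 and each called member, and called members of the lists reported. The symbol patterns also caught genes that are not of their list, UBA1A and PAC, which are left out of the text's lists. Members and lists were chosen with earlier results of these data known. The result of 1 gene list is not reported here.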

Additional observations from a re-analysis of the deposited data

Results flagged for a closer look

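The effect on PUB25 differed between the lines by a test of the difference itself, at -1.27 on the log2 scale (CHLM effect minus CHLD effect, SE 0.165, limma adjusted p = 8.46e-04). All 3 CHLD RNAi arrays lay above all 3 of their controls, and the CHLM arrays overlapped theirs. With 1 array left out at a time the value lay between -1.36 and -1.14.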

How the results depend on the processing

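Of 599 alternatives for 36 differences of PUB genes, 555 kept direction and side of the threshold. Most of the 36 were not called in the main fit, so that for them keeping the side means staying uncalled. For the called fall of PUB49 in the CHLM line, 12 of 17 alternatives ended the call. With 1 array left out at a time, the CHLD RNAi comparison called 1563 to 3626 probe sets and 1 to 2 PUB genes, the CHLM comparison 1156 to 2090 and 0 to 1, the Col-0 comparison 0 to 728 and 0 to 1, and the CHLM effect minus the CHLD effect 187 to 492 and 1 to 2. The 728, the 492 and the call of PUB19 between the Col-0 groups arose without Col-0 estradiol replicate 1. With only the arrays of the groups compared, the CHLM comparison called 855 probe sets and 0 PUB genes, and the Col-0 comparison 17. The latter called 27 without the dimmest probe sets and 36 with a trended, robust prior. Replicate numbers did not pair the arrays (correlations of deviations from -0.13 to 0.08). With the replicate block, 2 PUB genes were called in the CHLD RNAi line (PUB22 the added one, limma adjusted p = 0.0460), 0 in the CHLM line, and 25 probe sets between the Col-0 groups.

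Differences that changed sign did so among values not called. With 1 array left out, PUB15 ran from -0.067 to 0.13 (CHLD RNAi), -0.088 to 0.11 (Col-0 groups) and -0.038 to 0.16 (CHLM minus CHLD effect, -0.0075 after quantile normalization). PUB19 ran from -0.69 to 1.18 (CHLM minus CHLD effect), -1.33 to 0.54 (CHLM) and -0.55 to 1.32 (Col-0 groups). In the CHLM line PUB22 ran from -0.24 to 0.063, PUB23 from -0.12 to 0.15 and PUB43 from -0.19 to 0.053. Between the Col-0 groups PUB25 ran from -0.10 to 0.12 and PUB49 from -0.067 to 0.058, and PUB26 ran from -0.082 to 0.078 for the CHLM minus CHLD effect. The cause was not tested.

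PUB15 had no value without the dimmest probe sets, the CHLM minus CHLD effect needs all groups, and no PUB gene had several probe sets to choose from. The 3 arrays per group limit the precision, and the PUB19 intervals are the widest.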
